A study of Homo sapiens with 3 samples.

Results

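The genes described here are 9 genes of the NRF2 antioxidant pathway, read in Molm13 cells after 6 h of exposure to pyrvinium or to its vehicle. They were chosen by name, not by a measured value, and were found by Entrez gene identifier among the 25702 genes of the deposited counts. They are NFE2L2, which encodes NRF2, its inhibitor KEAP1, and the target genes NQO1, TXNRD1, SRXN1, HMOX1, PIR, ME1 and TALDO1. Molm13 is an established human cell line of acute myeloid leukemia with a FLT3 internal tandem duplication. Cells of this 1 line, grown in RPMI medium with serum and with no synchronization described, were used in every group. The groups were DMSO, the vehicle control, 50 nM pyrvinium and 100 nM pyrvinium, with 1 library of RNA sequencing for each. Pyrvinium is a cationic cyanine dye used against pinworms. The comparison asks whether the RNA of the cells carried an oxidative stress signature apart from the amino acid response.

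NRF2 is a transcription factor that is held low in resting cells, because KEAP1 binds it and hands it to a CUL3 ubiquitin ligase for degradation. When electrophiles or oxidants modify cysteines of KEAP1, NRF2 escapes, pairs with a small MAF protein and binds antioxidant response elements beside its target genes. Since this control acts on the NRF2 protein, activation is usually read from the RNA of the targets rather than from NFE2L2 itself. The targets make and recycle thioredoxin and glutathione, supply NADPH and detoxify quinones and heme.

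The libraries held 23165771 counts (DMSO), 22677038 counts (50 nM) and 24075123 counts (100 nM), and 12879 genes reached the filter of 10 counts in at least 1 library. Of the 9 genes, 8 passed this filter and HMOX1 did not. Log2 ratios were taken from counts scaled by edgeR's TMM factors, with 0.5 counts added per library, and each has a 95% Clopper-Pearson interval of the count ratio. The interval covers counting error only, so it compares the libraries and not the conditions, and no difference has a replicate check. A gene was called when its ratio was at least 2-fold in either direction. In bulk RNA, fewer cells of a type and less RNA per cell cannot be told apart. All 8 myeloid marker genes examined were present, with 291 to 11181 counts, while 7 of 8 genes listed for other cell types had at most 9. The other, PECAM1, had 156 to 191 counts on 1 exon range of 1343 bases. Its counts were not taken to show another cell type.

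Short promoter sequences are shown first, since each of the programs compared, the antioxidant and the amino acid response, has a known DNA element. The core of the antioxidant response element, TGACNNNGC, was searched on both strands from 500 bases before to 50 bases after the outermost annotated 5′ end of each gene in hg19. It was found at 4 of the 9 genes (NQO1, TXNRD1, ME1 and PIR), against 22.7% of 12847 genes scanned among those above the count filter. The matches are printed below with 10 bases on each side, 5′ to 3′ on the strand that reads the motif, with the motif in capitals. The match of NQO1 lies 385 bases before the gene's start (chr16:69760900-69760928, minus strand). Those of TXNRD1 lie 101 bases (chr12:104609448-104609476, plus strand) and 10 bases (chr12:104609539-104609567, minus strand) before its outermost start, and TXNRD1 has other starts that were not searched. Those of ME1 (chr6:84140889-84140917, minus strand) and PIR (chrX:15511412-15511440, plus strand) lie just inside the transcribed region, with their first bases on the gene's strand at positions 32 and 35.
NQO1: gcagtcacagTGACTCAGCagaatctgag
TXNRD1, distal: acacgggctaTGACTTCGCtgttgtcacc
TXNRD1, proximal: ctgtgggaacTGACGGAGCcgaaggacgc
ME1: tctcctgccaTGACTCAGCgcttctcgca
PIR: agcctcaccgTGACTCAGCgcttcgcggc

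The matches in NQO1, ME1 and PIR read the same 9 letters. The second motif searched was the core of the CEBP-ATF element, TGATGNAA, through which ATF4 acts on amino acid response genes. The fourth letter, T in place of C, keeps both motifs from matching at the same start on the same strand. The second motif was found at 0 of the 9 genes and at 4.42% of the genes scanned. SLC7A11, the cystine transporter that supplies glutathione synthesis and is listed among the targets of both NRF2 and ATF4, had this motif at 2 places, on opposite strands, 95 bases (chr4:139163581-139163608, minus strand) and 76 bases (chr4:139163562-139163589, plus strand) before its start, and no TGACNNNGC in the window. A match is a description of the letters and not a measured binding site.
SLC7A11, distal: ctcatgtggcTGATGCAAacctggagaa
SLC7A11, proximal: agctaaatgaTGATGCAAattctccagg

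Levels were compared between genes as RPKM, computed here from the counts, the exon length and the scaled library size. TALDO1, the transaldolase of the pentose phosphate pathway, was the highest, with an RPKM of 159.6 in DMSO, 155.9 at 50 nM and 146.7 at 100 nM. It was followed by TXNRD1 (66.1, 62.4 and 63.3 in the same order), KEAP1 (51.5, 53.7 and 52.8), NFE2L2 (31.6, 33.2 and 35.2), SRXN1 (20.7, 18.4 and 16.6) and NQO1 (12.01, 11.85 and 12.01). The order was the same in every library down to PIR (2.10, 2.25 and 2.68), and neighbours in it were separated by their counting intervals. ME1 (0.098, 0.201 and 0.118) and HMOX1 (0.136, 0.167 and 0.052) lay at the bottom, and their intervals overlapped in all 3 libraries. TALDO1 stood at percentile 96.7 of the genes above the filter by mean level, and ME1 at percentile 2.12. Thus 7 of the 9 genes were well above the count filter, and HMOX1 and ME1 were near or below it.

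**Figure D1:**
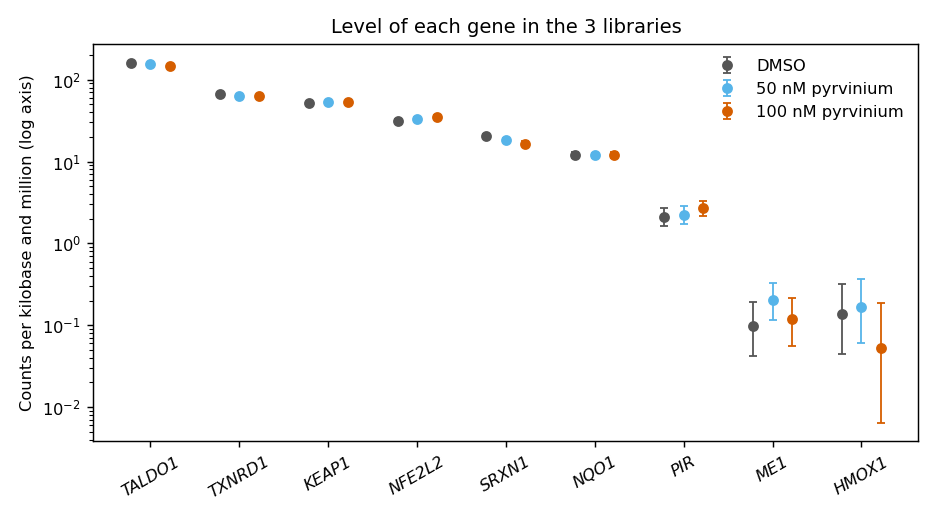
Level of each of the 9 genes (horizontal axis, ordered by mean) as RPKM on a log axis, with 1 point per library in grey for DMSO, blue for 50 nM and orange for 100 nM pyrvinium, and bars for the 95% Poisson interval of the count. The 3 points of a gene lie close together from TALDO1 to PIR, while ME1 and HMOX1 rest on 2 to 16 counts per library.

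The regulators differed little between libraries. NFE2L2, with Entrez identifier 4780, spans 178095033 to 178129859 on chromosome 2 (hg19, as for all positions here). Its counts were 2444 in DMSO, 2513 at 50 nM and 2836 at 100 nM. Its log2 ratio to DMSO was 0.07 at 50 nM (interval -0.01 to 0.16) and 0.16 at 100 nM (interval 0.08 to 0.24), which is 1.12-fold. It was the 1 gene of the 9 whose interval lay above 0 at 100 nM. KEAP1 (Entrez 9817, chromosome 19 from 10596796 to 10614054) had 3221, 3281 and 3437 counts, with log2 ratios of 0.06 (interval -0.01 to 0.13) and 0.04 (interval -0.03 to 0.11). Both of its intervals spanned 0.

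NQO1, a quinone reductase widely read as a reporter of NRF2 activity, gave nearly the same level in every library. NQO1 (Entrez 1728, chromosome 16 from 69743304 to 69760533) had 721 counts in DMSO, 695 at 50 nM and 750 at 100 nM. The log2 ratio was -0.02 at 50 nM (interval -0.17 to 0.13) and -0.00013 at 100 nM (interval -0.15 to 0.15). Both intervals exclude a 1.5-fold difference between these libraries in either direction. The sign of the value at 100 nM turned positive with DESeq2 size factors or total counts. PIR, an iron-binding nuclear protein and NRF2 target (Entrez 8544, chromosome X from 15402921 to 15511464), had 64, 67 and 85 counts. Its log2 ratio of 0.35 at 100 nM had an interval from -0.13 to 0.84, so that a difference was not detectable at this depth.

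TXNRD1 and SRXN1, both of the thioredoxin and peroxiredoxin system, were lower in the pyrvinium libraries than in DMSO. TXNRD1, the cytosolic thioredoxin reductase (Entrez 7296, chromosome 12 from 104609559 to 104744062), had 6481, 5977 and 6460 counts, with log2 ratios of -0.08 at 50 nM (interval -0.13 to -0.03) and -0.06 at 100 nM (interval -0.11 to -0.01). SRXN1, the sulfiredoxin that reactivates overoxidized peroxiredoxins (Entrez 140809, chromosome 20 from 627259 to 633890), had 1234 counts in DMSO, 1073 at 50 nM and 1029 at 100 nM. Its log2 ratio was -0.17 at 50 nM (interval -0.29 to -0.05) and -0.32 at 100 nM (interval -0.44 to -0.20), or 0.80-fold. The 100 nM library was also below the 50 nM library, with a log2 ratio of -0.15 (interval -0.28 to -0.03). SRXN1 had the lowest ratio of the 8 genes at 100 nM.

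The NADPH genes gave no shared direction. TALDO1 (Entrez 6888, chromosome 11 from 747432 to 765024) had 4598, 4386 and 4396 counts, with log2 ratios of -0.03 at 50 nM (interval -0.09 to 0.03) and -0.12 at 100 nM (interval -0.18 to -0.06). ME1, the cytosolic malic enzyme (Entrez 4199, chromosome 6 from 83920108 to 84140938), had 8, 16 and 10 counts. Its log2 ratio was 0.99 at 50 nM (interval -0.27 to 2.47) and 0.25 at 100 nM (interval -1.23 to 1.81), and neither was distinguishable from 0. HMOX1, the inducible heme oxygenase that breaks down heme (Entrez 3162, chromosome 22 from 35777060 to 35790207), had 5, 6 and 2 counts. The ratio of 2 to 5 counts at 100 nM has an interval from -4.77 to 1.23 on the log2 scale, so a difference was not detectable at this depth. The upper end of the interval of its level at 100 nM was an RPKM of 0.188.

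**Figure D2:**
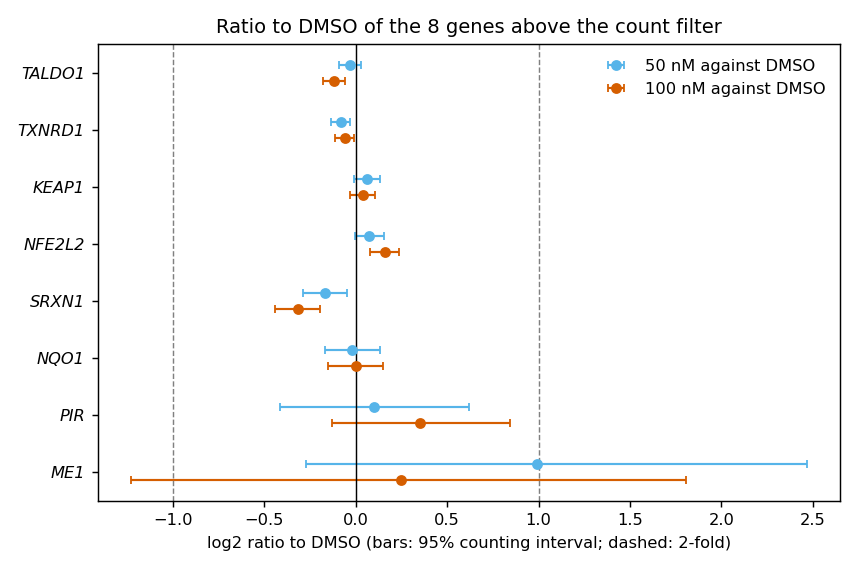
Log2 ratio of each pyrvinium library to DMSO (horizontal axis) for the 8 genes above the count filter, with blue points for 50 nM and orange points for 100 nM, bars for the 95% counting interval, and dashed lines at 2-fold. The 6 genes from TALDO1 to NQO1 have narrow intervals between -0.44 and 0.24, and those of PIR and ME1 are wide because the counts are few.

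Of the 8 genes above the filter, 0 were called higher and 0 lower at 100 nM, where 2.84% of all 12879 genes were called higher and 1.0% lower. At 50 nM 0 were called in either direction, against 1.81% of all genes higher and 0.916% lower. By the interval alone, 1 gene lay above 0 at 100 nM (NFE2L2) and 3 below (TXNRD1, SRXN1 and TALDO1), where 24.0% of all genes lay above and 25.3% below. At 50 nM 0 lay above and 2 below (TXNRD1 and SRXN1), against 18.6% and 18.5% of all genes. Between the doses, 1 of the 8 was higher at 100 nM than at 50 nM (NFE2L2) and 2 were lower (SRXN1 and TALDO1), against 12.5% and 14.3% of all genes. The interval lay wholly within 1.5-fold of no difference for 6 of the 8 genes at 100 nM and for 6 at 50 nM, against 67.8% and 72.7% of all genes. The 8 genes had a median log2 ratio of 0.02 at 100 nM and 0.02 at 50 nM, beside -0.0023 and 0.0007 over all genes. Both comparisons share the DMSO library.

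**Figure D3:**
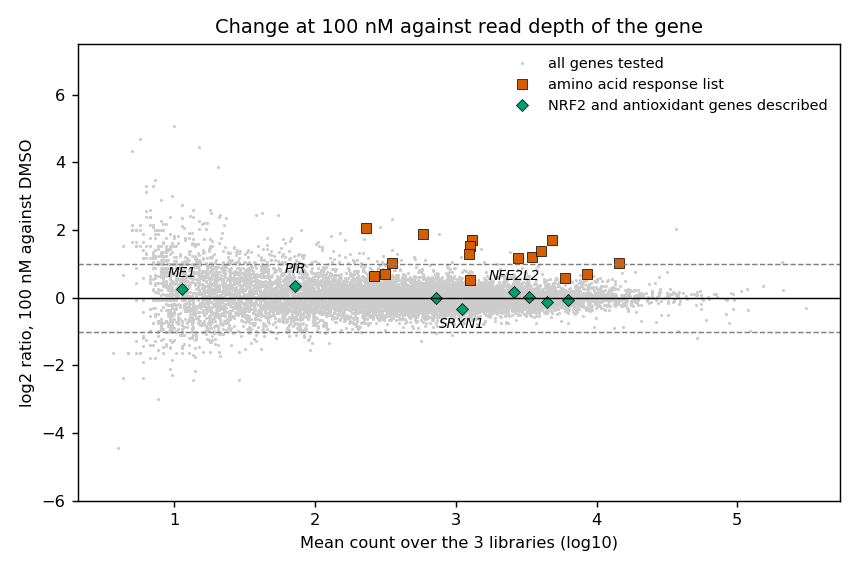
Log2 ratio of the 100 nM library to DMSO (vertical axis) against the mean count over the 3 libraries (horizontal axis, log10) for the 12879 genes above the filter in grey, the 8 genes described here as green diamonds and the 16 amino acid response genes as orange squares, with dashed lines at 2-fold. The diamonds lie between -0.32 and 0.35, inside the cloud of all genes, and the squares lie between 0.54 and 2.05.

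A wider list of 56 NRF2 regulators and targets, which holds the 9 genes, was read in the same way, and 48 of the 56 passed the filter. At 100 nM 21 of the 48 were higher and 27 lower than in DMSO, the median log2 ratio was -0.06, 9 intervals lay above 0 and 18 below, and 2 genes were called, both higher. Over all genes the median was -0.0023, 24.0% of intervals lay above 0 and 25.3% below, and 2.84% were called higher and 1.0% lower. One of these was SLC7A11, with 783, 1517 and 2234 counts and log2 ratios of 0.99 at 50 nM (interval 0.86 to 1.11) and 1.45 at 100 nM (interval 1.34 to 1.57). The other, AKR1C1, an aldo-keto reductase, rested on 5 and 12 counts, with an interval from -0.40 to 3.06, and its reads can be shared with near-identical family members. At 50 nM the median was 0.05, 27 genes were higher and 21 lower, and 13 intervals lay above 0 and 9 below. Over all genes at 50 nM 18.6% of intervals lay above 0 and 18.5% below, and 1.81% were called higher and 0.916% lower. The 1 gene called at 50 nM was MAFF, a small MAF protein, which was lower, with 28, 11 and 23 counts. AKR1C1 and MAFF fall outside the rule for named genes and were named after their values were seen.

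The regulators differed little as a list. Of 11 regulator genes, NFE2L2 and KEAP1 among them, 3 intervals lay above 0 and 1 below at 100 nM. Over all genes 24.0% lay above and 25.3% below. Among regulators with at least 100 counts, CUL3, the scaffold of the ligase that degrades NRF2, was lowest at -0.15 (3236, 2956 and 3031 counts). The highest was MAFG, a small MAF partner of NRF2, at 0.22 (3298, 3449 and 3990 counts). The list of other targets held PIR and OSGIN1, and both intervals spanned 0.

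Among 7 glutathione genes above the filter, 5 intervals lay below 0 and 2 above at 100 nM, where 25.3% of all genes lay below and 24.0% above. These shares are the background for each list that follows. The glutathione genes leaned the other way at 50 nM, with 4 intervals above 0 and 0 below. Over all genes at 50 nM 18.6% lay above and 18.5% below. The median log2 ratio of the 7 was 0.10 at 50 nM and -0.11 at 100 nM. At 100 nM ABCC1, an exporter of glutathione conjugates, was lowest, at -0.25 (652, 583 and 571 counts), and SLC7A11 was highest. Both subunits of the enzyme that starts glutathione synthesis, named after their values were seen, parted, with log2 ratios at 100 nM of 0.15 for the catalytic GCLC (interval 0.03 to 0.27) and -0.23 for the modifier GCLM (interval -0.44 to -0.03). All 5 thioredoxin and peroxiredoxin genes (TXN, TXNRD1, SRXN1, PRDX1 and PRDX6) had intervals below 0 at 100 nM, with a median of -0.19, from -0.32 for SRXN1 to -0.06 for TXNRD1. None of the 5 differed by 1.5-fold. Their counts ran from 1029 to 11255, where an interval can exclude 0 at a small difference. The background shares cover genes of any depth above the filter and were not matched for counts.

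Of the 6 NADPH and pentose phosphate genes, 2 intervals lay above 0 and 1 below at 100 nM. TALDO1 was the lowest of them. Among 10 quinone and aldehyde detoxification genes above the filter, 1 interval lay above 0 and 4 below. UGDH, the enzyme that makes UDP-glucuronate, lay just inside the 2-fold limit at -0.98 (141, 97 and 74 counts, interval -1.41 to -0.57), and EPHX1, the microsomal epoxide hydrolase, was at 0.29 (356, 418 and 453 counts). CBR1, a carbonyl reductase named after its values were seen, had 2041, 1435 and 1270 counts and a log2 ratio of -0.74 (interval -0.84 to -0.64). Of 7 heme and iron genes above the filter, 1 interval lay above 0, that of the ferritin heavy chain FTH1 at 0.21 (5271, 5743 and 6336 counts), and 2 lay below, of which FECH, the last enzyme of heme synthesis, was lowest at -0.29 (585, 508 and 497 counts). Reads of FTH1 can be shared with processed pseudogenes, which makes its value uncertain.

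**Figure D4:**
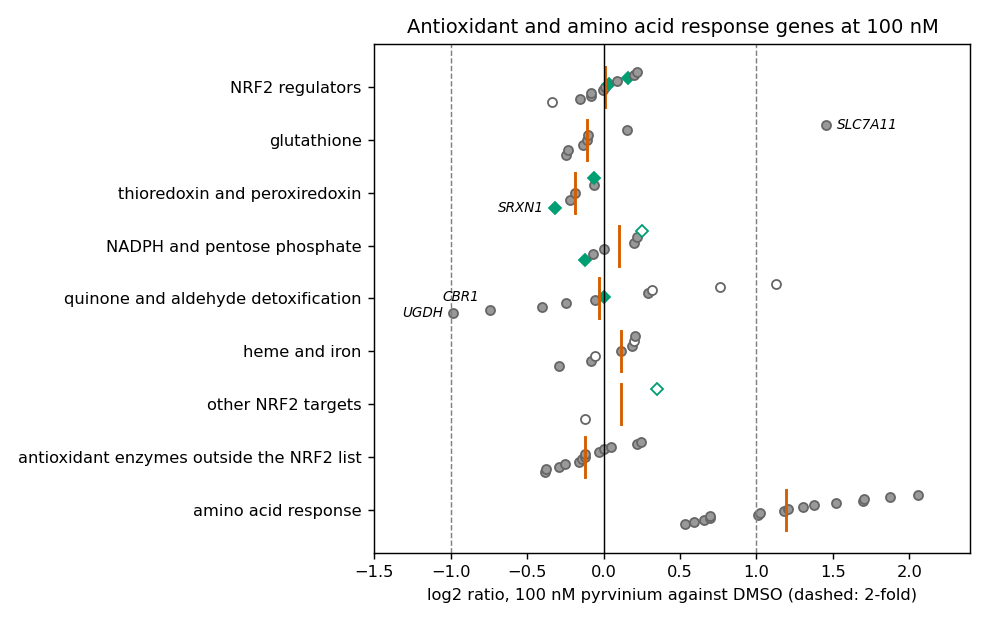
Log2 ratio of the 100 nM library to DMSO (horizontal axis) for every gene above the filter in each list (rows), with green diamonds for the genes described here, grey circles for other list genes, open symbols for genes with under 100 counts in both libraries, orange bars for the list's median and dashed lines at 2-fold. The medians of the 7 NRF2 lists lie between -0.19 and 0.11. SLC7A11 at 1.45, CBR1 at -0.74 and UGDH at -0.98 lie farthest out in them among genes with at least 100 counts. The 16 amino acid response genes lie from 0.54 to 2.05.

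The amino acid response stood beside this in the same libraries. Of 16 such genes, SLC7A11 not among them, 16 had intervals above 0 at 100 nM and 11 were called higher, with a median log2 ratio of 1.19, against 24.0% and 2.84% of all genes. The 11 calls fell to 2, CHAC1 and CTH, in edgeR's exact test with an assumed coefficient of variation of 0.2. At 50 nM 15 intervals lay above 0 and 3 genes were called higher, with a median of 0.72, against 18.6% and 1.81% of all genes. They ranged at 100 nM from 0.54 for ATF5, a transcription factor of the response (1045, 1174 and 1576 counts), to 2.05 for CHAC1, which degrades glutathione (88, 219 and 382 counts). Several of these genes were singled out by the study on these libraries, so their direction is not independent evidence. The lowest of the 16 values at 100 nM, that of ATF5, exceeded the highest of the 9 genes described here, 0.35 for PIR. Their intervals overlapped, from 0.42 to 0.65 for ATF5 and from -0.13 to 0.84 for PIR. The 16 were listed as known genes of the response, so this gap partly reflects how the list was made. Without SLC7A11, the 47 remaining NRF2 list genes had a median of -0.06 at 100 nM.

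For the 3 of the 9 genes that differed most at 100 nM among those with at least 100 counts, the most similar genes were sought. Likeness was the distance between the pairs of log2 ratios at both doses, among the 9979 genes that averaged 100 counts or more over the 3 libraries. Nearest to SRXN1 was RPA2, a subunit of the single-strand DNA binding complex, at -0.16 and -0.32 (distance 0.0023), followed by CEP170P1 and TCF19. Nearest to NFE2L2 was CCZ1, at 0.07 and 0.16 (distance 0.0013), followed by ARFIP1 and TBL1XR1. Nearest to TALDO1 was the leukocyte surface protein CD53, at -0.03 and -0.12 (distance 0.0015), followed by NFRKB and RUNDC1. All these distances are far smaller than the counting intervals, that of SRXN1 at 100 nM running from -0.44 to -0.20. The order of the neighbours is therefore not resolved by these counts.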

How the data were processed

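Strand-specific libraries of Molm13 RNA were sequenced. The deposited values are whole-number counts per Entrez gene with no normalization, made by the authors after alignment with Rsubread against hg19. The aligner's version and the strand setting of the counting are not given in the sources used here. No exon of the 9 genes overlaps an exon of another gene in the deposited annotation. A deposited table of the authors' own EBSeq comparisons (posterior probabilities, fold changes and condition means) was not used.

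Of 25702 identifiers, 23696 were given a RefSeq symbol (GRCh38.p14, names only). Sequences come from GRCh37, the build of the counts. Libraries were scaled with edgeR 4.0.16 (TMM, R 4.3.3) over genes with at least 10 counts in 1 library. Ratios and intervals were computed in Python 3.11.15 (scipy 1.17.1) and tested on simulated data. The simulated counts held Poisson counting error alone, so that test checks the computation and does not cover variation between libraries. A floor of 3 counts is 1.25e-05% to 1.32e-05% of a library. Intervals cover counting error only. With 1 library a group, no main result rests on a test and no p-value is printed. The tests named below as alternatives compare the libraries or assume a spread.

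The genes and lists were chosen with earlier results of these data known. The genes named are the 9 genes, the highest and lowest of each other list at 100 nM with at least 100 counts, list genes called with at least 50 counts, and the 3 nearest genes to the 3 of the 9 that differed most. One gene under this rule is not reported here. As alternatives, scaling used total counts, DESeq2 1.42.0 or TMM without mitochondrial genes. Other filters, 5 counts added and a 1.5-fold threshold were also tried. So were a binomial test and an exact test in edgeR that assumed a coefficient of variation of 0.2. Each test was added to the 2-fold limit, with an adjusted p of at most 0.05.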

Additional observations from a re-analysis of the deposited data

Results flagged for a closer look

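Among the 48 NRF2 list genes above the filter, 4 lay above DMSO at 50 nM and below it at 100 nM, with both intervals excluding 0. The difference between the doses was not tested across replicates, since each dose has 1 library, and both ratios share the DMSO library. MGST1, a microsomal glutathione transferase, had a log2 ratio of 0.0956 at 50 nM and -0.1099 at 100 nM. GSTP1, a cytosolic glutathione transferase, had 0.0666 and -0.1359. PRDX6, a peroxiredoxin that reduces phospholipid peroxides, had 0.0982 and -0.1851. FTL, the ferritin light chain, had 0.0479 and -0.0817, and its reads can be shared with processed pseudogenes. Over all 12879 genes, 28 (0.217%) showed this pattern, and 6 (0.0466%) showed the opposite one. These shares were not matched for counts. The lowest count of the 4 genes was 1820, for MGST1 at 100 nM, and at such depth small ratios can exclude 0.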

How the results depend on the processing

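No call among the 8 genes above the filter was made under DESeq2 size factors, total counts, TMM without mitochondrial genes, a filter of 50 counts, 5 counts added, the binomial test or edgeR's exact test with an assumed coefficient of variation of 0.2, at either dose or between doses. Without a count filter 1 gene, HMOX1 on 5 and 2 counts, was called at 100 nM against DMSO, and 1, again HMOX1, against 50 nM. At 1.5-fold, 0 were called at 100 nM and 1, ME1, at 50 nM and 1, ME1, between the doses. The share of all genes called was not computed under these alternatives, so no background stands beside these counts. All 141 recomputed ratios of the 8 genes stayed inside their intervals, but a change of count filter leaves a ratio the same by construction. The largest move was 0.265, for ME1 at 50 nM with 5 counts added. The scalings moved the libraries against each other by at most 0.00499 on the log2 scale, which changed the sign of NQO1 at 100 nM and of no other gene of the 8.

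In the NRF2 list, the 2 calls at 100 nM became 5 without a filter, 1 with a filter of 50 counts, 1 with 5 counts added and 5 at 1.5-fold. Of the 2, the binomial test kept 1 and edgeR's exact test with the assumed coefficient of variation kept 0. Both tests were added to the 2-fold limit, so they could only remove calls and do not count genes with smaller differences. Leaving out SLC7A11, an alternative chosen after seeing the data, left 1. The 1 call at 50 nM became 2 without a filter, 0 at 50 counts, 4 at 1.5-fold and 0 with the assumed coefficient of variation. The 11 amino acid response genes called became 2 with that assumption, CHAC1 and CTH. For these lists too, the share of all genes called under the alternatives was not computed. No paired analysis was possible because each group has 1 library.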

Other observations

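Antioxidant enzymes outside the NRF2 list were read as well. Of 13 such genes, all above the count filter, 2 intervals lay above 0 and 7 below at 100 nM, with a median log2 ratio of -0.12 and 0 genes called. Over all genes 24.0% lay above and 25.3% below, and 2.84% were called higher and 1.0% lower. The values ran from -0.38 for SOD2, the mitochondrial superoxide dismutase (2623, 2250 and 2095 counts, interval -0.46 to -0.30), to 0.25 for TXNRD2, the mitochondrial thioredoxin reductase (502, 583 and 620 counts, interval 0.08 to 0.42). At 50 nM the median was -0.0037.

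Over the 12847 genes scanned, the 2922 with TGACNNNGC in the promoter window had a median log2 ratio of -0.01 at 100 nM, and 2.87% of them were at least 2-fold higher, beside 2.82% of all genes scanned. The 568 genes with TGATGNAA had a median of 0.07, and 6.69% of them were at least 2-fold higher. In the NRF2 list, 21 of 48 genes held TGACNNNGC, with a median of -0.11 at 100 nM, and 3 held TGATGNAA, which are SLC7A11, AKR1C1 and ABCC2. In the amino acid response list, 7 of 16 held TGATGNAA and 5 of 16 held TGACNNNGC. These are descriptions of letters in a window, and genes are not replicates.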
